A study of Mus musculus with 2 samples.

Results

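Poly(A)-binding and mRNA storage proteins were followed through 10 genes: Pabpc1, Pabpc2, Pabpc4, Pabpc6, Paip1, Paip2, Ybx2, Tarbp2, Elavl1 and Cpeb2. They were chosen by gene symbol, and all 10 had a row in the expression table, which holds 23234 genes. Total RNA had been sequenced from round spermatids, haploid male germ cells between meiosis and elongation, of C57BL/6 mice. One library is labelled Epc-dKO, for a deficiency of Epc1 and Epc2, which encode subunits of a histone acetyltransferase complex, and the other is labelled wild type (WT). The sources used here do not give the animals' age, the number pooled, the way the genes were inactivated or the purity of the cells. Values are FPKM, by definition fragment numbers divided by transcript length and by the library's mapped total. Levels of different genes can thus be set side by side per length. Any further scaling between the libraries is not given. With 1 library per genotype there was no replicate error and no test, and every difference below is one between 2 libraries. Read depth is unknown. Differences are log2 ratios of (FPKM + 1), Epc-dKO over WT, which makes changes of weakly expressed genes look smaller. A gene with a mean of 1 FPKM or more over both libraries was called expressed, and it was counted as higher or lower when at least 2-fold apart on that scale.

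In cells at large, a cytoplasmic poly(A)-binding protein coats the A tail of an mRNA and contacts the initiation factor eIF4G at the cap, which favours translation and protects the tail. Round spermatids are known for doing much of the opposite. They transcribe mRNAs for the sperm head and tail early, hold them as silent ribonucleoprotein particles, and translate them days later when the nucleus condenses and transcription stops. Y-box proteins such as Ybx2 package these stored mRNAs, while PABP-interacting proteins, double-stranded RNA-binding proteins and proteins that bind 3′ untranslated regions tune when they are released.

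The targeted genes gave no check of the label. Epc1 stood at 13.6 FPKM in the library labelled Epc-dKO and 11.4 FPKM in the WT library. Epc2 stood at 10.5 FPKM in the library labelled Epc-dKO and 7.12 FPKM in the WT library. A gene-level FPKM also counts exons outside a deletion, and which exons were deleted is not known here. All 12 round spermatid markers listed were expressed, with summed levels of 702 FPKM in the library labelled Epc-dKO and 604 FPKM in the WT library. The higher sum came from Prm1 and Tnp1, which are also stored mRNAs: the other 10 summed to 562 FPKM in the library labelled Epc-dKO and 579 FPKM in the WT library, with 5 of 10 log2 ratios below 0. Partial sums here were chosen after the values were seen. The 15 spermatogonial markers summed to 18.0 FPKM in the library labelled Epc-dKO and 38.2 FPKM in the WT library, with none at 0 in either. Of their log2 ratios 14 of 15 were below 0, against 11999 of all 23234 genes. Of the 11 expressed, 2 were at least 2-fold lower, against 1.88% of all expressed genes. The Leydig and spermatocyte lists below each held 1 such gene, Insl3 and Tex101. Sertoli markers (11 in the table) summed to 8.62 FPKM in the library labelled Epc-dKO and 14.0 FPKM in the WT library, with the Sertoli gene Fshr listed at 0 in the WT library. Peritubular and stromal markers (8) summed to 7.74 FPKM in the library labelled Epc-dKO and 15.6 FPKM in the WT library. These 3 lists were also lower without the gene that differed most: 15.5 FPKM in the library labelled Epc-dKO and 30.7 FPKM in the WT library for spermatogonia without Dmrt1. The Sertoli list without Clu had 3.59 FPKM in the library labelled Epc-dKO and 5.67 FPKM in the WT library, and the peritubular list without Acta2 had 4.06 FPKM in the library labelled Epc-dKO and 9.58 FPKM in the WT library. Leydig markers (7) summed to 23.6 FPKM in the library labelled Epc-dKO and 31.7 FPKM in the WT library, a gap due to Insl3, since the other 6 summed to 16.8 FPKM in each library. Spermatocyte markers (12) summed to 219 FPKM in the library labelled Epc-dKO and 244 FPKM in the WT library. Without Ccna1 the other 11 summed to 158 FPKM in the library labelled Epc-dKO and 157 FPKM in the WT library. Of these 11, 6 had log2 ratios below 0 and 5 above. Tex101 was lower (5.69 FPKM in the library labelled Epc-dKO, 12.4 FPKM in WT) and Piwil1 higher (27.2 and 20.3 FPKM). Endothelial, blood and immune markers (8) summed to 4.07 FPKM in the library labelled Epc-dKO and 4.98 FPKM in the WT library, with the globin genes Hbb-b1 and Hba-a1 listed at 0 in both. This list, too, was lower without the gene that differed most, Emr1. The other 7 summed to 3.16 FPKM in the library labelled Epc-dKO and 4.54 FPKM in the WT library.

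The cytoplasmic PABP genes held an abundant group (Pabpc1, Pabpc2 and Pabpc6) and nearly silent relatives such as Pabpc4, and their sequences are shown because close paralogs can exchange reads. Transcripts of GENCODE M21 (GRCm38) put Pabpc1 on 15 exons and Pabpc4 on 15 exons, whereas Pabpc2 and Pabpc6 each have a single exon. The coding sequence of Pabpc6 was 81.2% identical to that of Pabpc1, and that of Pabpc2 was 81.9% identical to Pabpc1. Pabpc4 was 68.9% identical to Pabpc1. The longest exact run shared with the Pabpc1 transcript was 42 nt for Pabpc6, 37 nt for Pabpc2 and 18 nt for Pabpc4. Of 50-base stretches of the Pabpc2 and Pabpc6 transcripts, 0 occurred in a transcript of another gene. The least alike 90-base coding window of Pabpc1 and Pabpc6, among 490 windows without gaps that lie inside single exons, is printed as an example. Gapped and exon-spanning stretches were left out, so the window does not show how far the paralogs part elsewhere. It was chosen for Pabpc6 and not for Pabpc4. Capitals mark bases that differ from Pabpc1, 18 in Pabpc6 and 25 in Pabpc4. The window covers coding bases 256 to 345 in each gene, at chr15:36605786-36605875 (minus strand) for Pabpc1, chr17:9669276-9669365 (minus strand) for Pabpc6 and chr4:123286742-123286831 (plus strand) for Pabpc4.
Pabpc1: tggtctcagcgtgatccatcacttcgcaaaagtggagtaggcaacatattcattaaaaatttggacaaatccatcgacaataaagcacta
Pabpc6: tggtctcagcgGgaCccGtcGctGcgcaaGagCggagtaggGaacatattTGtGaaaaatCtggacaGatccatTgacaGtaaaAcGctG
Pabpc4: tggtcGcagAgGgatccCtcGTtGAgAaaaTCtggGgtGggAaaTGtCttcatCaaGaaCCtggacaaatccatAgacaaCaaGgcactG

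Pabpc1, the general cytoplasmic poly(A)-binding protein gene, was the second highest of all 23234 genes in both libraries. Its level was 1230 FPKM in the library labelled Epc-dKO and 1285 FPKM in the WT library. The log2 ratio was -0.06. Pabpc2, whose intronless gene is known to be transcribed in mouse testis, had 402 FPKM in the library labelled Epc-dKO and 348 FPKM in the WT library, a log2 ratio of 0.21. Pabpc6, the other intronless paralog, had 200.0 FPKM in the library labelled Epc-dKO and 186 FPKM in the WT library, a log2 ratio of 0.10. These 3 genes made up nearly all cytoplasmic PABP message. Pabpc1 was 67.1% of the summed FPKM of 7 cytoplasmic PABP genes in the library labelled Epc-dKO and 70.6% in the WT library. Pabpc2 was 21.9% in the library labelled Epc-dKO and 19.1% in the WT library. Pabpc6 was 10.9% in the library labelled Epc-dKO and 10.2% in the WT library. The family's summed level was 1834 FPKM in the library labelled Epc-dKO and 1822 FPKM in the WT library.

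Pabpc4, which encodes the inducible PABP described in activated human T cells, was low. It had 0.832 FPKM in the library labelled Epc-dKO, rank 10536 of all genes, and 1.87 FPKM in the WT library, rank 8554. Its log2 ratio of -0.65 was the lowest of the 10 genes. At so low a level the ratio depended on the scale. With a pseudocount of 0.1 the log2 ratio was -1.08, and on the TPM scale, with each library rescaled to the same larger sum, it was -1.04. Either would count as at least 2-fold lower. So did 6.25% of the 10438 expressed genes with that pseudocount. On the TPM scale 6.96% did, of a larger set of 15151 genes with a mean of 1 TPM or more. Of its 50-base stretches 74.8% occur in transcripts of other genes, 70.9% in the transcribed processed pseudogene Gm10110 alone, so reads from that locus and from Pabpc4 could be exchanged. The spermatogonial markers were lower as well (18.0 FPKM summed in the library labelled Epc-dKO, 38.2 FPKM in the WT library). So were the sums of every other marker list except the round spermatid one, and 5677 of all 10438 expressed genes had a log2 ratio below 0. The part of any of these cells in the value of Pabpc4 was not tested. In bulk RNA, fewer cells of a type and less RNA per cell cannot be told apart. Pabpc1 shared 20.7% of its 50-base stretches with other genes, the largest part (14.8%) with the processed pseudogene Gm16580.

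PABP is known, in human cells, to bind an A-rich tract in the 5′ untranslated region of its own mRNA and to repress it, so the tracts are shown here in windows of 30 bases with the longest A run in capitals. The run was 8 bases in Pabpc1 (chr15:36608874-36608903, minus strand) and 10 bases in Pabpc4 (chr4:123282913-123282942, plus strand). A run of at least 8 bases occurred in 5.29% of 2419 genes over the same length of 5′ untranslated region, 467 nt, and a run of at least 10 bases in 4.44% of 900 genes over 704 nt. The intronless Pabpc2 and Pabpc6 had longest A runs of 2 bases and 1 base, over shorter annotated regions of 187 nt and 97 nt. Runs at least that long occurred in 97.1% and 100% of genes over the same lengths. The match is a description of the sequence, and no measurement of binding or translation was made.
Pabpc1: ttaaaaaatccAAAAAAAAtctaaaaaatc
Pabpc4: aaagaagaggAAAAAAAAAAgcaaaaggga

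**Figure D1:**
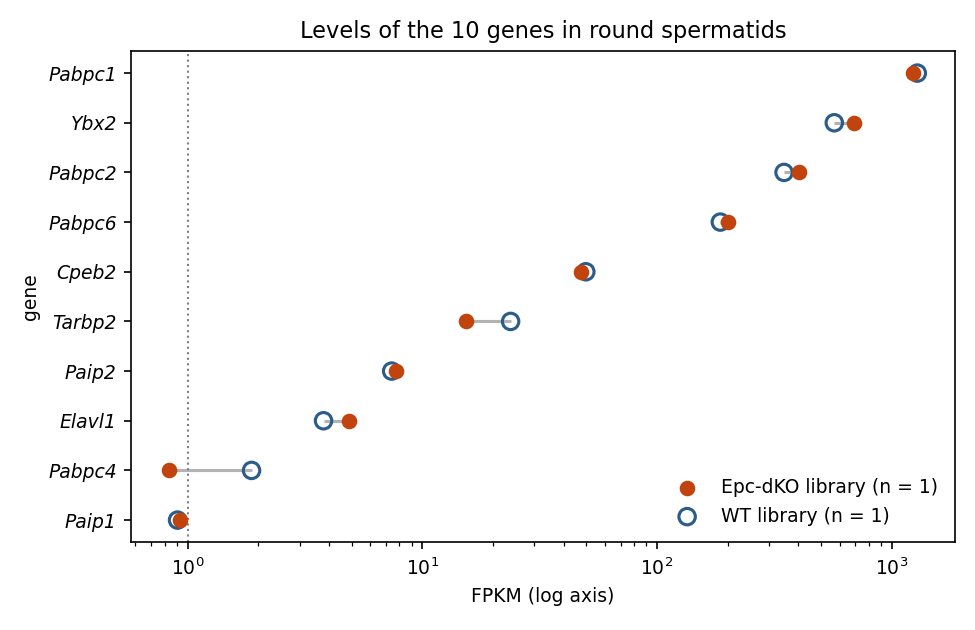
FPKM (log axis) of the 10 genes, ordered by mean level, in the library labelled Epc-dKO (filled points) and the WT library (open points), with 1 library each; the dotted line marks 1 FPKM. Levels span from under 1 FPKM for Paip1 to 1230 and 1285 FPKM for Pabpc1, and the widest gaps between the libraries are those of Pabpc4 and Tarbp2, both lower in the Epc-dKO-labelled library.

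The genes of PABP-interacting proteins were expressed far below PABP itself. Paip1, a stimulator of translation that bridges PABP and the initiation machinery, had 0.929 FPKM in the library labelled Epc-dKO and 0.907 FPKM in the WT library. Its mean was below 1 FPKM, so it was left out of the counts. Paip2, which displaces PABP from the A tail and lowers translation, had 7.71 FPKM in the library labelled Epc-dKO and 7.41 FPKM in the WT library, a log2 ratio of 0.05. Its paralog Paip2b, which acts in the same way, had 6.54 FPKM in the library labelled Epc-dKO and 7.77 FPKM in the WT library. Inhibitor message thus exceeded stimulator message: Paip2 stood at 8.30 times Paip1 in the library labelled Epc-dKO and 8.17 times in the WT library. In turn Pabpc1 stood at 159.6 times Paip2 in the library labelled Epc-dKO and 173.5 times in the WT library. Mice without Paip2 are known to have a late spermiogenesis defect and male infertility, which is background and was not measured.

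Ybx2, the germ-cell Y-box protein that packages stored mRNA, was among the 15 highest genes of both libraries. It had 692 FPKM in the library labelled Epc-dKO, rank 9, and 569 FPKM in the WT library, rank 15. The log2 ratio was 0.28. Ybx1, the broadly expressed family member, had nearly the same log2 ratio (0.28), with 468 FPKM in the library labelled Epc-dKO and 384 FPKM in the WT library. The gene listed as Csda, now called Ybx3, which encodes the other Y-box protein of spermatids, had 566 FPKM in the library labelled Epc-dKO and 557 FPKM in the WT library, a log2 ratio of 0.02. The summed level of the 3 genes was 1726 FPKM in the library labelled Epc-dKO and 1511 FPKM in the WT library. The 7 cytoplasmic PABP genes summed to 1834 FPKM in the library labelled Epc-dKO and 1822 FPKM in the WT library. Without replicates the Y-box and PABP sums, close in the library labelled Epc-dKO, cannot be ranked. No 50-base stretch of Ybx2 occurred in another gene's transcripts, while Ybx1 and Csda were not searched.

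Tarbp2 encodes a double-stranded RNA-binding protein that partners Dicer and, in mouse testis, binds protamine mRNA and is needed for its timely translation. It had 15.4 FPKM in the library labelled Epc-dKO and 23.8 FPKM in the WT library. The log2 ratio of -0.60 was the second lowest of the 10 genes. It ranged from -0.66 to -0.55 over the scales and pseudocounts tried and never reached 2-fold. Of Tarbp2's 50-base stretches 49.0% also occur in the processed pseudogene Gm18584. The direction was that of every summed marker list except the round spermatid one, and of 5677 of all 10438 expressed genes. The part of any marked cell type in this value was not tested either. Its close relative Prkra had 0.380 FPKM in the library labelled Epc-dKO and 0.480 FPKM in the WT library. The germ-cell double-stranded RNA-binding gene Adad1 had 72.7 FPKM in the library labelled Epc-dKO and 77.9 FPKM in the WT library.

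Cpeb2, of the cytoplasmic polyadenylation element-binding family that controls translation through U-rich 3′ elements, was the leading CPEB gene. It had 47.7 FPKM in the library labelled Epc-dKO and 49.8 FPKM in the WT library, a log2 ratio of -0.06. It supplied 70.0% of CPEB message in the library labelled Epc-dKO and 76.0% in the WT library. Cpeb4 came next, with 16.7 FPKM in the library labelled Epc-dKO and 12.6 FPKM in the WT library. Among low relatives, Cpeb3 rose to 2.64 FPKM in the library labelled Epc-dKO, against 0.729 FPKM in the WT library, a log2 ratio of 1.08. Cpeb1 had 1.05 FPKM in the library labelled Epc-dKO and 2.38 FPKM in the WT library (-0.72). Elavl1, which encodes HuR, a stabiliser of AU-rich mRNAs, had 4.88 FPKM in the library labelled Epc-dKO and 3.80 FPKM in the WT library. Its log2 ratio of 0.29 was the highest of the 10 genes.

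**Figure D2:**
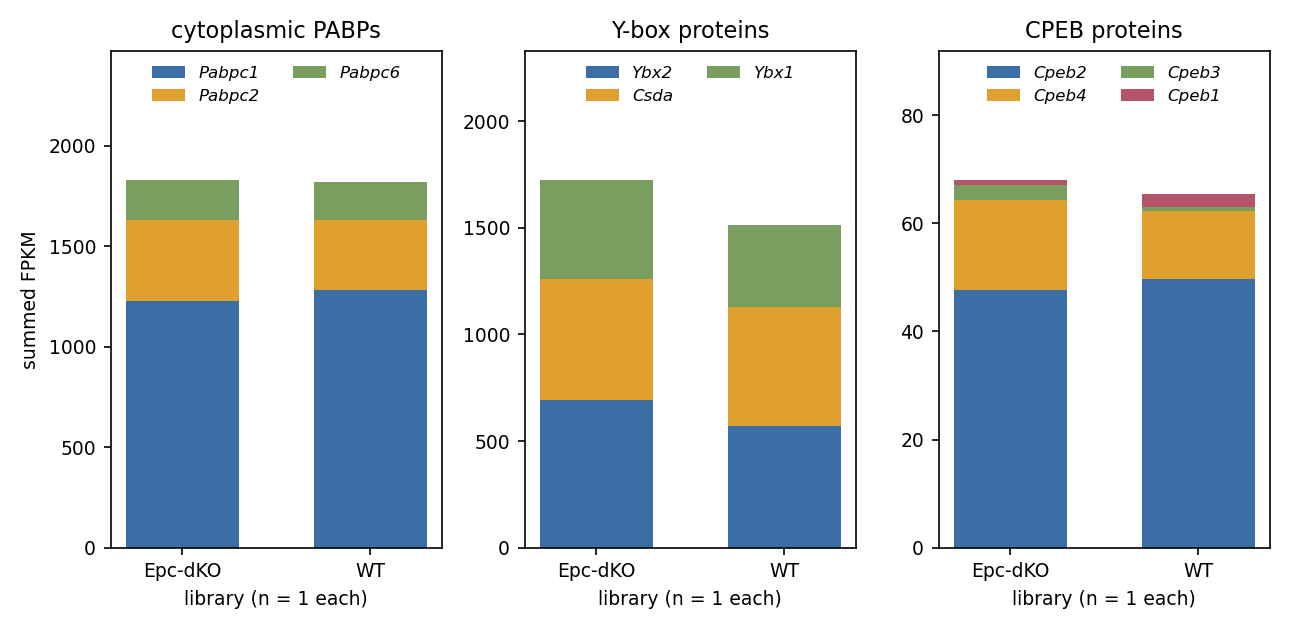
Summed FPKM of the abundant cytoplasmic PABP genes, the Y-box genes and the CPEB genes in the library labelled Epc-dKO (left bar) and the WT library (right bar), stacked by gene, with 1 library each and separate vertical axes from 0; PABP genes under 2 FPKM are too low to draw. Pabpc1 makes up 67.1% of PABP message in the library labelled Epc-dKO and 70.6% in the WT library, and the Y-box bars reach 1726 FPKM in the library labelled Epc-dKO and 1511 FPKM in the WT library.

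None of the 10 genes was counted as changed. Of the 9 with a mean of 1 FPKM or more, 0 were at least 2-fold higher and 0 were at least 2-fold lower in the library labelled Epc-dKO. Among all 10438 expressed genes 2.75% were at least 2-fold higher and 1.88% at least 2-fold lower, or 4.63% in all, so a count of 0 among 9 is near the background and is no result about these genes. The median log2 ratio of the 9 genes was 0.05, against -0.05 over all expressed genes. Of the 9 genes 5 lay between the quartiles of all expressed genes, -0.34 and 0.24. Pabpc4 and Tarbp2 lay below them, at percentiles 8.57 and 10.3 of the log2 ratio, and Ybx2 and Elavl1 lay above them, at 78.1 and 79.0. The order of the 10 levels was the same in both libraries for 8 genes. Pabpc4 and Paip1, the lowest pair, swapped places, and without replicates neighbours this close cannot be ranked. The 10 genes together accounted for 1.31% of all FPKM in the library labelled Epc-dKO and 1.28% in the WT library.

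**Figure D3:**
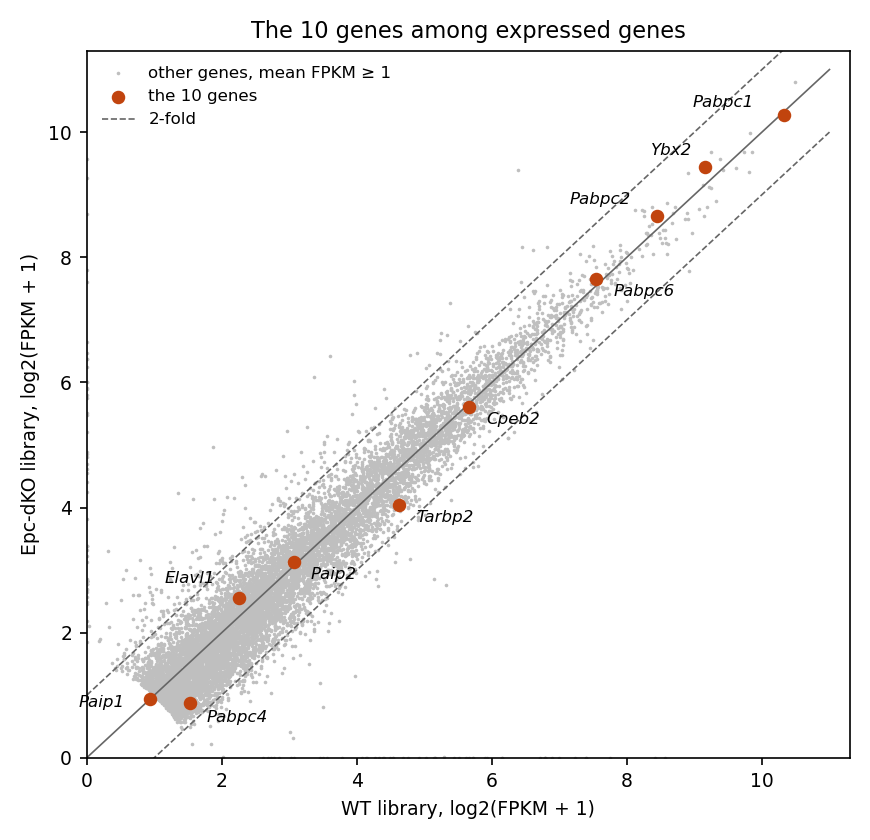
Levels as log2(FPKM + 1), library labelled Epc-dKO (vertical axis) against the WT library (horizontal axis) for expressed genes (grey) and the 10 genes (coloured, named), 1 library per genotype; the solid line is equality and the dashed lines 2-fold. All 10 genes lie between the dashed lines, with Pabpc4 and Tarbp2 nearest to the lower line.

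Other genes of the poly(A) and storage machinery, and mRNAs known to be stored, were taken as lists. Over 8 lists of related genes 113 genes had a row and 93 were expressed, of which 6 (6.45%) were at least 2-fold higher and 0 lower, with a median log2 ratio of 0.03. Over all expressed genes the shares were 2.75% higher and 1.88% lower. The count of 0 lower became 7 with a pseudocount of 0.1, where 6.25% of all expressed genes were lower. It became 8 on the TPM scale, where 6.96% of 15151 genes with a mean of 1 TPM or more were lower. That limit lets in more genes, so the 8 are not out of the 93. Of the 6 higher genes, 4 were stored spermatid mRNAs and 2 encode regulators. The stored mRNAs were picked with earlier results of these data known. The share of 6.45% is therefore no result about the machinery. Papd5, a non-canonical poly(A) polymerase, rose to 31.4 FPKM in the library labelled Epc-dKO, against 13.6 FPKM in the WT library (log2 ratio 1.15). Cpeb3 was the other. The testis poly(A) polymerase Papolb, which extends cytoplasmic tails in spermatids and is, like Pabpc2 and Pabpc6, a gene of 1 exon, had 183 FPKM in the library labelled Epc-dKO and 187 FPKM in the WT library. Its nuclear paralog Papola, with 22 exons, had 20.2 FPKM in the library labelled Epc-dKO and 17.5 FPKM in the WT library.

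The counts of each list are to be read against the same shares of all expressed genes, 2.75% higher and 1.88% lower. Other PABP-related genes had 3 of 7 expressed, 0 past 2-fold and a median log2 ratio of 0.22. Zc3h14, for a nuclear poly(A)-binding zinc finger protein, had 107.7 FPKM in the library labelled Epc-dKO and 92.5 FPKM in the WT library. Pabpn1, the nuclear PABP gene, had 42.4 FPKM in the library labelled Epc-dKO and 34.1 FPKM in the WT library. Deadenylation genes, which remove A tails, had 0 of 19 expressed members past 2-fold and a median of 0.10. Cnot1, the scaffold of the CCR4-NOT deadenylase, had 155 FPKM in the library labelled Epc-dKO and 141 FPKM in the WT library. Cnot4, a ubiquitin ligase of that complex, had 73.6 FPKM in the library labelled Epc-dKO and 51.2 FPKM in the WT library. Decapping and P-body genes had 0 of 10 past 2-fold and a median of -0.11. The decapping scaffold gene Edc4 had 21.0 FPKM in the library labelled Epc-dKO and 30.2 FPKM in the WT library. Dcp1b, for a decapping activator, had 21.4 FPKM in the library labelled Epc-dKO and 24.4 FPKM in the WT library. Lsm14a, a P-body protein gene chosen after its value was seen, had 4.75 FPKM in the library labelled Epc-dKO and 10.2 FPKM in the WT library, a log2 ratio of -0.96.

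Regulators that bind untranslated regions had 0 of 28 expressed members past 2-fold, against 4.63% of all expressed genes, and a median of 0.00. Larp1, which binds messages of ribosomal proteins, had 160.0 FPKM in the library labelled Epc-dKO and 148 FPKM in the WT library. Fxr1, a translational activator in spermatids, had 176 FPKM in the library labelled Epc-dKO and 127 FPKM in the WT library. Initiation and release partners of PABP had 0 of 9 past 2-fold and a median of 0.00. Eif4g3, the eIF4G gene that mouse spermatogenesis requires, had 143 FPKM in the library labelled Epc-dKO and 148 FPKM in the WT library. Eif4g2, an eIF4G relative that does not bind PABP, had 63.5 FPKM in the library labelled Epc-dKO and 54.8 FPKM in the WT library. Poly(A) polymerases had 1 of 6 higher and a median of 0.01, and paralogs of the Y-box, CPEB, ELAV and double-stranded RNA-binding genes had 1 of 10 higher and a median of -0.02, against 2.75% higher over all expressed genes. In lists of this size a count of 0 or 1 is near the background.

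**Figure D4:**
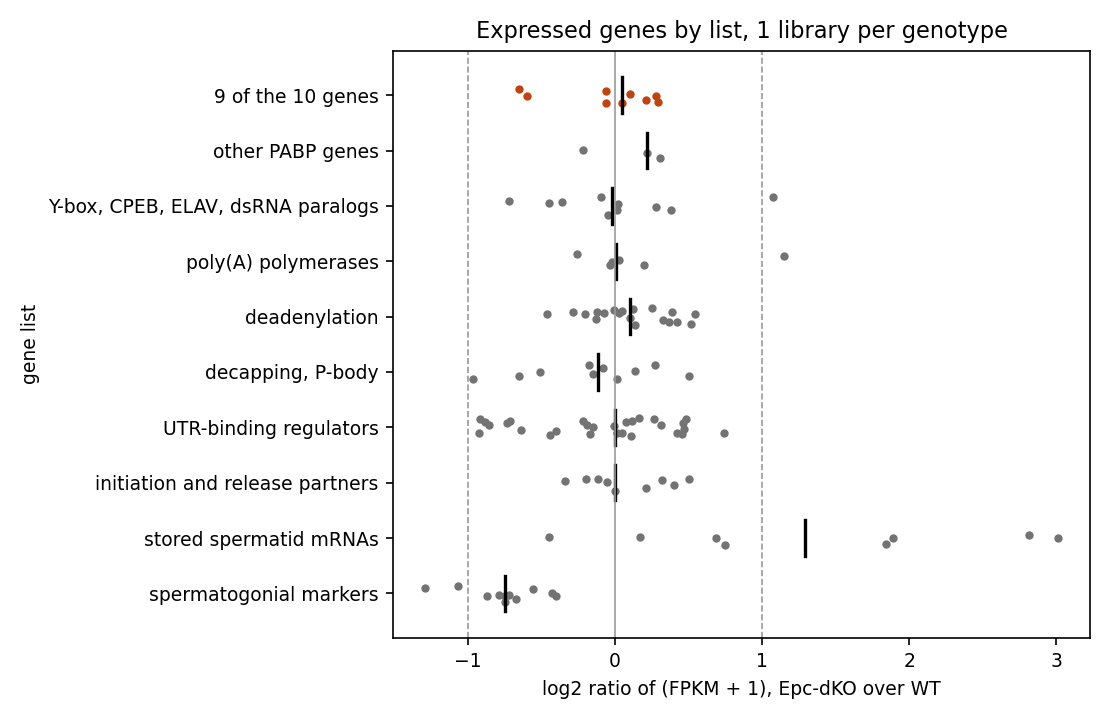
Log2 ratio of (FPKM + 1), Epc-dKO over WT, for expressed genes (points) of each list, with the list's median (black bar) and dashed lines at 2-fold; vertical jitter has no meaning, and each genotype has 1 library. The 9 expressed genes of the poly(A)-binding and storage list (top row) stay inside the dashed lines, while 4 of 8 stored spermatid mRNAs lie beyond the upper line.

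Of 8 mRNAs known to be stored in spermatids 4 were at least 2-fold higher and 0 at least 2-fold lower. Over all expressed genes the shares were 2.75% higher and 1.88% lower. Of the 8 log2 ratios 7 were above 0 and 1 was below, against 4761 above 0 among all 10438 expressed genes. The median log2 ratio was 1.29, in a list picked with earlier results of these data known. Prm2, for protamine 2, had 675 FPKM in the library labelled Epc-dKO and 82.8 FPKM in the WT library, a log2 ratio of 3.01. Prm1, for protamine 1, had 85.0 FPKM in the library labelled Epc-dKO and 11.2 FPKM in the WT library, a log2 ratio of 2.82. Its rank among all genes was 458 in the library labelled Epc-dKO and 3262 in the WT library. The transition protein gene Tnp2 had 153 FPKM in the library labelled Epc-dKO and 40.5 FPKM in the WT library, a log2 ratio of 1.89. Its partner Tnp1 had 54.8 FPKM in the library labelled Epc-dKO and 14.6 FPKM in the WT library, a log2 ratio of 1.84. Smcp, a mitochondrial capsule gene, had 264 FPKM in the library labelled Epc-dKO and 157 FPKM in the WT library. Odf1, an outer dense fibre gene, had 290 FPKM in the library labelled Epc-dKO and 180 FPKM in the WT library. Pgk2, a spermatogenic glycolysis gene, had 74.4 FPKM in the library labelled Epc-dKO and 65.9 FPKM in the WT library, a log2 ratio of 0.17. Prm3, also of the protamine cluster, had 11.5 FPKM in the library labelled Epc-dKO and 16.1 FPKM in the WT library, a log2 ratio of -0.45. In bulk RNA of 1 library per genotype, another mix of spermatid stages and more RNA per cell cannot be told apart.

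Y-box proteins of mouse testis are known to bind the letters UCCAUCA, written as DNA TCCATCA, in the 3′ untranslated region of Prm1 mRNA. The sense strand of the 3′ untranslated regions of the 8 stored mRNAs was searched for it, and Prm1 was the only one to hold it, once, at bases 18 to 24 after the stop codon. The site is printed with its surroundings, motif in capitals, because it is a known target of the Y-box proteins. It lies at chr16:10796448-10796477 (minus strand, GRCm38). Of 17793 genes with a 3′ untranslated region at least as long, 1.43% held the motif in the first 158 bases, the length of that of Prm1. The site in Prm1 was known beforehand, so its presence there is no result of the search. No match in the other 7, Prm2 among them, says only that these exact letters are not in the annotated region. That region was only 33 nt in Prm2 and 79 nt in Prm3. Over the first 33 nt, 0.272% of genes held the motif. Variants of the motif were not searched.
Prm1: agaatagcaagTCCATCAaaactcctgcgt

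Genes nearest to the 3 most abundant members in level over the 2 libraries were sought by Euclidean distance in log2(FPKM + 1). Small RNA, clone and predicted gene symbols were left out of this search. Those nearest to Pabpc1 were Odf2 (0.58), Atp8b3 (0.75) and Ubb (1.04), of the outer dense fibres, a flippase and ubiquitin. Ybx2 lay nearest to Tcp11 (0.26), Dnahc8 (0.26) and Akap12 (0.27), and Pabpc2 to Eef1a1 (0.14), Sord (0.19) and Ccdc60 (0.20). With 2 libraries this is likeness of level only.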

How the data were processed

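The authors deposited FPKM values per gene, a column for each library. Cufflinks 2.2.1 and mm9 are named in the submitters' processing notes. Per the labels' protocols, directional libraries were amplified by PCR. The sources used here do not give the aligner, annotation, strand setting or any scaling. The table had 23235 rows, of which 1 held library codes and no gene. FPKM holds no counts, so no depth, interval or detection limit is given.

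Libraries were grouped by their genotype labels. The log2 ratio was taken on FPKM + 1, genes with a mean of 1 FPKM or more were called expressed, and 2-fold was the rule for a change, a size rule and not a test. The rule for named genes takes all 10 genes, every related gene past 2-fold and the 2 most abundant of each list; other genes named were chosen after their values were seen. Members and lists were chosen with earlier results of these data known. Transcript structure and sequence came from GENCODE M21 (GRCm38), the protein-coding transcript with the longest coding sequence per gene; mm9 coordinates were not used. Coding sequences were aligned globally with Biopython 1.88. Shared 50-base stretches were sought on the sense strand of all transcripts. Alternatives were other pseudocounts, minimums, scalings and a 4-fold rule. Python 3.11.15, NumPy 2.4.6, pandas 2.3.3 and Matplotlib 3.10.9 were used.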

Additional observations from a re-analysis of the deposited data

How the results depend on the processing

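Of 60 recomputed log2 ratios of the 10 genes under other pseudocounts and scalings, 58 stayed on the same side of 2-fold; the others were Pabpc4 with a pseudocount of 0.1 (-1.08) and on the TPM scale (-1.04), which gave 1 gene lower in each case. The sign changed only for Paip1 (-0.01 to 0.04). No scaling moved the median of all genes by more than 0.1. Among all genes the higher and lower counts were 433 and 652 with a pseudocount of 0.1, and 364 were lower with a pseudocount of 0.5. They were 545 and 1054 on the TPM scale, of 15151 genes with a mean of 1 TPM or more. At a mean of 5 FPKM or more they were 166 and 105, and under the 4-fold rule 76 and 59. Related genes lower numbered 7, 4 and 8 with pseudocounts of 0.1 and 0.5 and on the TPM scale, among them Lsm14a (-1.09, -1.03 and -1.10) and, except with 0.5, Cpeb1 (-1.11 and -1.07); 2 were higher by 4-fold. List medians moved to 0.0255 for other PABP-related genes and -0.12 for regulators without a minimum, to 0.20 for poly(A) polymerases and 0.17 for regulators at a mean of 5 FPKM or more, and to -0.13 for paralogs and -0.23 for regulators on the TPM scale; the cause was not tested beyond the change in genes counted. No paired analysis was possible because there is 1 library of each genotype, and no library could be left out. Unknown depth limits statements on Pabpc4, Paip1 and Cpeb3.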
